A study of Mus musculus with 4 samples.

Results

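Antibody-secreting plasma cells were followed through 10 genes of their survival and secretion, in single cells from kidneys of aged mice given BPTES or its vehicle. All 10 were found by symbol among the 31054 genes of each library's gene list. They are the cytokine genes Tnfsf13b, Tnfsf13 and Il6, the chemokine gene Cxcl12, the receptor genes Tnfrsf17, Tnfrsf13b, Tnfrsf13c and Cxcr4, and the secretory genes Mzb1 and Xbp1. The mice were male C57BL/6 of 19 months, and received BPTES, an inhibitor of the glutaminase GLS1, or DMSO for 1 month. Each group has 2 libraries, called BPTES 1 and 2 and DMSO 1 and 2. For each library, digested kidney was sorted on CD45, the surface protein of leukocytes, and 20000 negative cells were combined with 9000 positive ones of that tissue. The mixing sets the ratio of leukocytes to other cells, so shares are given among leukocytes. The labels state neither the dose nor whether the 2 libraries of a group came from separate mice, so p-values measure only the spread between these libraries. With 2 against 2, an exact two-sided permutation test of a single value cannot go below 0.333.

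Plasma cells live long only while other cells supply them. BAFF (Tnfsf13b) and APRIL (Tnfsf13) are related cytokines of myeloid and stromal cells. They bind BCMA (Tnfrsf17), TACI (Tnfrsf13b) and, for BAFF alone, the BAFF receptor (Tnfrsf13c), and signal to NF-kB and to anti-apoptotic BCL2 proteins. CXCL12 from stroma attracts cells that carry CXCR4 and holds plasma cells in their niches, and IL-6 supports their growth and survival. Within the cell, the transcription factor XBP1 expands the endoplasmic reticulum (ER) for antibody output, and MZB1 is an ER protein that helps to assemble and secrete immunoglobulin.

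The libraries held 17907 to 20091 barcodes and 249881074 to 297947661 UMIs (unique molecular identifiers, the counted RNA molecules). After filters, 46738 of 76278 barcodes were kept, 10849 to 12076 per library, and 611 different barcodes occurred in more than 1 library. Cells were named from marker genes that exclude the 10 genes, which gave 22 named classes. Plasma cells numbered 228 (BPTES 1), 176 (BPTES 2), 28 (DMSO 1) and 26 (DMSO 2), which was 7.08%, 5.95%, 0.833% and 0.912% of leukocytes. With predicted doublets kept, plasma cells numbered 245, 269, 46 and 35 in the same order. Leukocytes here are the cells of 13 named classes. These classes leave out cycling cells and unnamed clusters, among them cluster 11 (1270 cells led by Cd8b1 and Cd8a). Later sums and shares of leukocytes use the same 13 classes. All 8 plasma cell markers were present in at least 20% of these cells. The median plasma cell had 46502 UMIs in BPTES 1, 48837 in BPTES 2, 6347 in DMSO 1 and 91239 in DMSO 2. Immunoglobulin genes took 45.0% to 56.2% of plasma cell UMIs.

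Where each gene was read is shown first, as CPM, the UMIs of a gene per 1000000 UMIs of a cell class, averaged over the 4 libraries. Tnfrsf17 and Mzb1 were highest in plasma cells, at 95.9 and 1198 CPM. Tnfrsf13c was highest in B cells (131 CPM), Cxcl12 in mesenchymal stroma (539 CPM), and Tnfsf13b in fibroblasts, macrophages and mesenchymal stroma. Levels of different genes are not compared with each other.

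**Figure D1:**
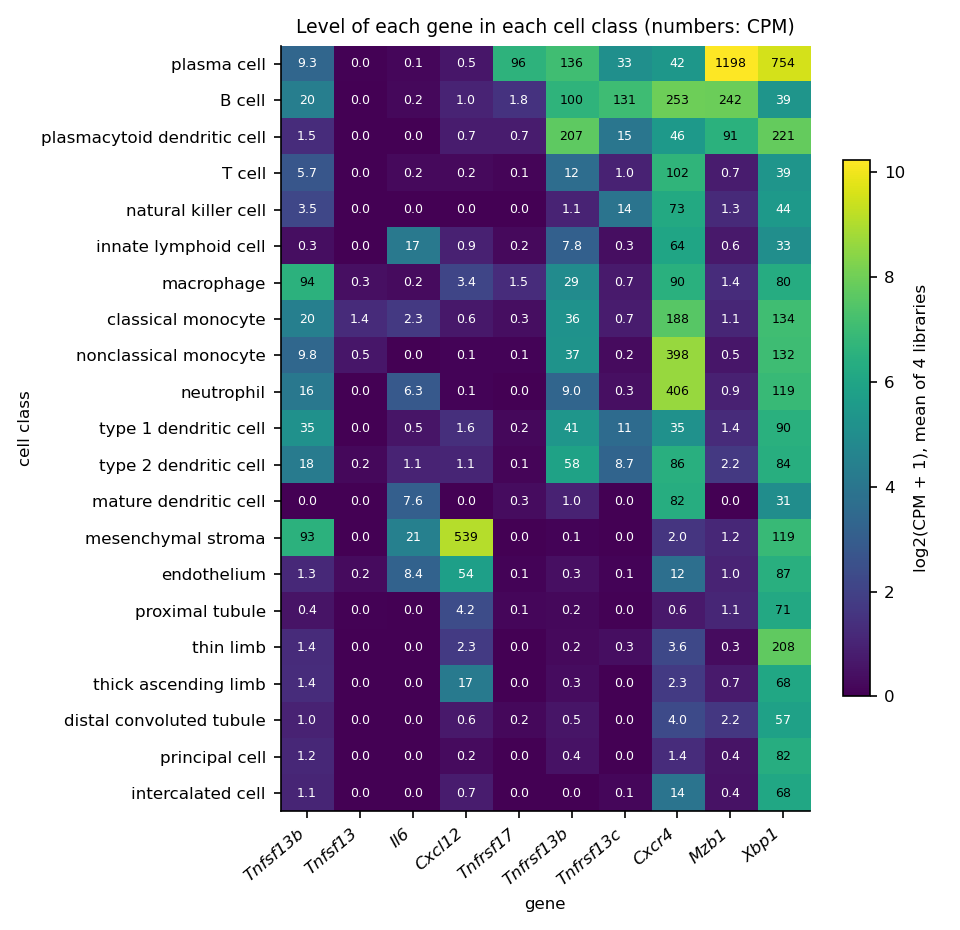
Level of each of the 10 genes (columns) in 21 cell classes (rows); the printed numbers are CPM, as means of 4 libraries, and the colour is log2(CPM + 1). Tnfrsf17 and Mzb1 stand out in plasma cells at 95.9 and 1198 CPM, and Cxcl12 stands out in mesenchymal stroma at 539 CPM.

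Tnfsf13b (ENSMUSG00000031497, chr8:10006467-10039072, plus strand, build mm10) encodes BAFF. By class it stood at 87.8 to 131 CPM over the 4 libraries in fibroblasts, 78.5 to 103 in macrophages and 77.3 to 102 in mesenchymal stroma, ranges that overlap. Type 1 dendritic cells (22.0 to 42.6) lay below these. Mesenchymal stroma joins the fibroblasts with an unnamed mesenchymal cluster, so it contains them. Fibroblasts numbered 13 in BPTES 1 and 16 in BPTES 2. Macrophages gave 72.5% of the leukocytes' Tnfsf13b UMIs, with 67.1% to 75.9% in each library. Of those of the other cells fibroblasts gave 61.7%, but 33.8%, 28.9%, 50.5% and 76.1% in BPTES 1, BPTES 2, DMSO 1 and DMSO 2, and the unnamed mesenchymal cells gave more than them in BPTES 2 (41.5%). For comparisons between groups, CPM was scaled between libraries by edgeR's TMM factors, and is called scaled CPM. In macrophages Tnfsf13b was at 93.2 (BPTES 1) and 79.7 (BPTES 2) scaled CPM, and at 98.9 (DMSO 1) and 104 (DMSO 2). Both BPTES values lay below both DMSO values; 57.6% of macrophage genes had groups without overlap in either direction. The log2 difference of BPTES from DMSO was -0.23 (SE 0.09) with an edgeR adjusted p of 0.189, which is not past the threshold of 0.05. In macrophage cluster 2 Tnfsf13b stood at 121, 93.4, 107 and 122 CPM, in the order BPTES 1, BPTES 2, DMSO 1 and DMSO 2. Cluster 19, with Themis and Cd8b1 among its leading genes, had 67.8, 57.9, 79.8 and 79.6 CPM. Cluster 42, at 2 to 11 UMIs a library, had 68.1, 40.4, 53.3 and 58.9 CPM. The groups overlapped in clusters 2 and 42 and did not in cluster 19. In mesenchymal stroma the BPTES libraries had 78.1 and 97.0 scaled CPM and the DMSO libraries 104 and 99.5, without overlap, as in 44.7% of its genes. The log2 difference was -0.21 (SE 0.18, edgeR adjusted p 0.700). Within both of its clusters the groups overlapped. In the order BPTES 1, BPTES 2, DMSO 1 and DMSO 2, cluster 39 (fibroblasts) had 131, 87.8, 131 and 102 CPM. Cluster 41 had 48.9, 100, 56.6 and 86.4 CPM.

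In neutrophils Tnfsf13b lay higher in both BPTES libraries, with 18.1 and 27.2 scaled CPM against 13.5 and 7.16 under DMSO, from 24 to 54 UMIs a library. The log2 difference was 1.16 (SE 0.44) and was not called (edgeR adjusted p 0.758), where 39.2% of neutrophil genes had groups without overlap. With predicted doublets kept it was 0.042 (SE 0.15). At resolution 2 a neutrophil cluster led by Cxcl3, Il1rn and Cxcl2 held 21, 27, 36 and 208 of the 208, 204, 227 and 293 neutrophils. The order is BPTES 1, BPTES 2, DMSO 1 and DMSO 2, so the cluster held most neutrophils of DMSO 2. In B cells, which carry little Tnfsf13b, the libraries had 37, 11, 83 and 210 UMIs in the order BPTES 1, BPTES 2, DMSO 1 and DMSO 2. This was 9.48, 3.83, 24.6 and 42.1 scaled CPM, all BPTES below DMSO. The log2 difference was -2.28 (SE 0.46, edgeR adjusted p 0.146), and DESeq2 called it (adjusted p 0.000795). Macrophage markers moved with it: the 7 together stood at 765, 414, 1757 and 5304 CPM in the B cells of the same libraries, 0 of the 7 being in 20% of the cells and each being above 0. B cell cluster 49, with Cxcl13 among its leading genes and a median of 35393 UMIs a cell, had 6, 4, 18 and 57 cells in the same order. Without it the log2 difference was -1.17 (SE 0.58, edgeR adjusted p 0.498), and with predicted doublets kept it was -0.88 (edgeR adjusted p 0.150). The part of macrophage RNA in this result was not tested.

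**Figure D2:**
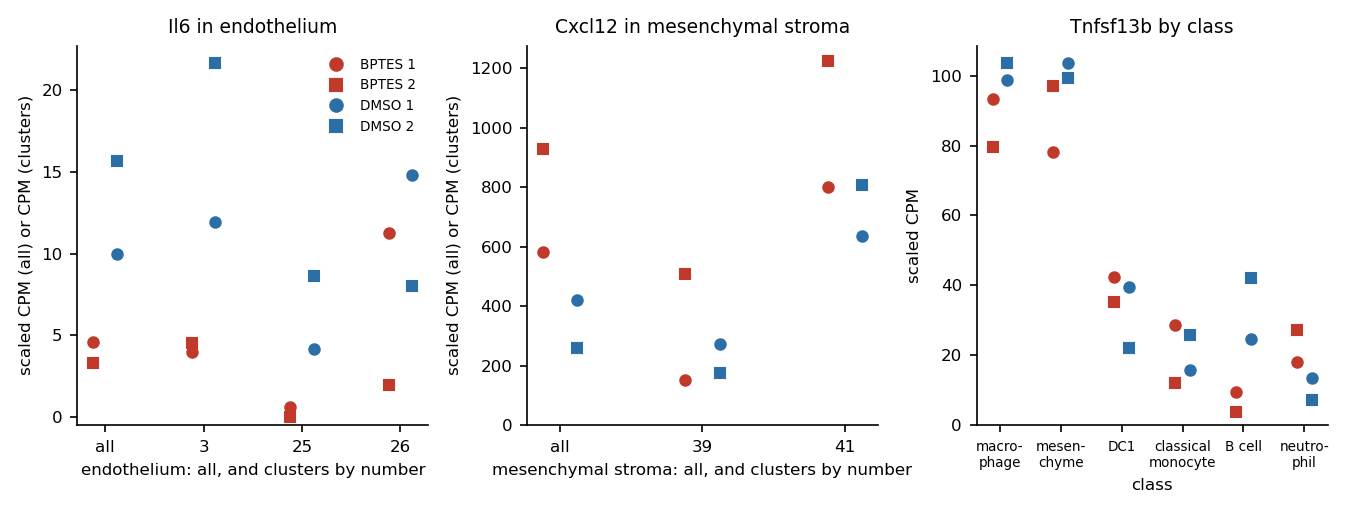
Ligand levels in each library, for Il6 in endothelium (left), Cxcl12 in mesenchymal stroma (middle) and Tnfsf13b in 6 classes (right); circles are replicate 1 and squares replicate 2, whole classes are in scaled CPM and single clusters in CPM. Endothelial Il6 lies at 4.57 and 3.30 in the BPTES libraries and at 10.0 and 15.65 in the DMSO libraries, and macrophage Tnfsf13b lies between 79.7 and 104 in all 4.

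Tnfsf13 (ENSMUSG00000089669, chr11:69682846-69685784, minus strand), the gene of APRIL, was barely counted. The named leukocyte classes together gave 15 UMIs in BPTES 1, 20 in BPTES 2, 25 in DMSO 1 and 17 in DMSO 2, and the groups overlapped. Classical monocytes gave 48.1% of these and macrophages 35.1%, but in DMSO 2 macrophages gave most (10 cells with a UMI). The classical monocyte cluster 21 had the macrophage marker Cd5l among its leading genes. It held 211, 200, 305 and 99 cells, in the order BPTES 1, BPTES 2, DMSO 1 and DMSO 2. At resolution 2 classical monocytes numbered 137, 169, 150 and 68, and a macrophage cluster led by Cd5l held 48, 15, 132 and 26 cells. The part of macrophages in the classical monocyte values was not tested. The log2 difference over leukocytes was -0.02 (SE 0.40, edgeR adjusted p 0.977). Its count is uncertain, because the annotation places the readthrough gene Tnfsfm13 over it on the same strand. Tnfsfm13 was counted separately in the files and stood at 7.29 to 8.62 CPM in classical monocytes, where Tnfsf13 stood at 0.892 to 2.30.

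Il6 (ENSMUSG00000025746, chr5:30013114-30019981, plus strand) encodes interleukin 6. Its promoter is shown because Il6 was the 1 ligand gene that edgeR called within a class with all 4 libraries. The 250 bases before its start (RefSeq, GRCm38.p6, chr5:30012864-30013113, plus strand) are given 5′ to 3′, with capitals on a kappaB motif, the element that NF-kB proteins bind.
Il6: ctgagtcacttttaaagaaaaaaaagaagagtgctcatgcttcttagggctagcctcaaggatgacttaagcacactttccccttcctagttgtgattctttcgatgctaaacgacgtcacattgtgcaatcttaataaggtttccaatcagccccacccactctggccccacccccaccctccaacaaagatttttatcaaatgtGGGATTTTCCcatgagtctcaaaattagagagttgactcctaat
The motif searched was GGGA, any base, then TTTCC, on both strands. It lies 35 to 44 bases before the Il6 start, at chr5:30013070-30013079. Of the 10 genes, 9 had a promoter entry, Mzb1 being the other, and 1 of the 9 held the motif, against 112 of 27025 genes (0.414%). A match is a description of the letters and not of binding.

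In endothelium, Il6 had 57 UMIs in BPTES 1, 22 in BPTES 2, 109 in DMSO 1 and 250 in DMSO 2. The levels were 4.57, 3.30, 10.0 and 15.65 scaled CPM, so the BPTES libraries lay below both DMSO libraries. Il6 fell under BPTES, with a log2 difference of -1.67 (SE 0.27), which is a fold of 0.313 (edgeR adjusted p 0.0271). It was the 1 call among 6 members tested there, against 0.784% of all 13655 endothelial genes called, 0.410% lower under BPTES. In cluster 3 (led by Igfbp3, Esm1 and Btnl9) Il6 was at 3.95, 4.52, 11.9 and 21.7 CPM in the same order, with 11, 14, 23 and 70 cells that had an Il6 UMI. In cluster 25 (led by Selp, Car8 and Plvap) the values were 0.617, 0, 4.17 and 8.60 CPM. In both clusters the BPTES libraries lay below the DMSO libraries. In cluster 26 (led by Cldn5, Lgr5 and Sox17) the values were 11.3, 1.94, 14.8 and 8.03 CPM, and the groups overlapped.

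The Il6 call was lost without BPTES 1 (log2 difference -1.97, edgeR adjusted p 0.0787), without BPTES 2 (-1.50, edgeR adjusted p 0.143) with predicted doublets kept (-1.65, edgeR adjusted p 0.0722) and with a block for the replicate number (-1.61, edgeR adjusted p 0.0809). Markers of other cells in endothelium also varied: the 8 fibroblast markers summed to 2.18, 1.33, 2.77 and 8.13 CPM and the 7 macrophage markers to 23.5, 21.1, 36.2 and 42.1 CPM, in the same order of libraries. Each of these 15 markers was above 0 and in under 20% of the cells. The 8 pericyte or smooth muscle markers summed to 9.92, 6.63, 129 and 9.38 CPM. Other lists separated the groups in either direction. The 6 mature dendritic cell markers (91.1, 105, 121 and 130 CPM) were higher in both DMSO libraries, and the 8 plasma cell markers (217, 321, 89.7 and 66.1 CPM) in both BPTES libraries. The part of such markers in the result was not tested.

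Il6 was also read in other classes, some of them at levels above those of endothelium in the same library. Innate lymphoid cells gave 29.1% of the leukocytes' Il6 UMIs over all libraries, and 65.1%, 16.3%, 22.5% and 21.4% in the order above. More came from neutrophils in BPTES 2 (52.0%), from mature dendritic cells in DMSO 1 (23.6%) and from type 2 dendritic cells in DMSO 2 (26.8%). In innate lymphoid cells Il6 stood at 21.2, 11.6, 19.8 and 14.4 CPM in the same order, and the groups overlapped. In mesenchymal stroma the UMIs were 0, 28, 69 and 133 (log2 difference -1.02, SE 1.26, edgeR adjusted p 0.825). Its fibroblast cluster 39 stood at 0, 10.7, 51.8 and 19.8 CPM in the same order, and its cluster 41 at 0, 39.2, 15.6 and 11.6. Neutrophils held 51 Il6 UMIs in BPTES 2 and 0 or 1 in each other library. In classical monocytes the BPTES libraries had 2.07 and 4.21 scaled CPM and the DMSO libraries 1.27 and 1.68, without overlap, as in 48.4% of monocyte genes. The log2 difference there was 1.12 (SE 0.56) and was not called (edgeR adjusted p 0.418).

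Cxcl12 (ENSMUSG00000061353, chr6:117168535-117181367, plus strand) was tested in a mesenchymal stroma class. The class was formed after the clusters were seen, because fibroblasts alone had fewer than 20 cells in each BPTES library. It joins fibroblast cluster 39, with 13, 16, 34 and 183 cells in the order above, and cluster 41, which is led by fibroblast and smooth muscle genes (Dcn, Acta2, Rgs5) and has 43, 32, 41 and 104 cells. Cxcl12 stood at 582 and 928 scaled CPM in the BPTES libraries and at 421 and 258 in the DMSO libraries. Both BPTES libraries were above both DMSO libraries, and 44.7% of the genes had groups without overlap. The log2 difference was 1.16 (SE 0.32, edgeR adjusted p 0.231). Among 4 members tested, edgeR called 0 (1 at an unadjusted p under 0.05), against 0.687% of all 10777 genes. At an unadjusted edgeR p under 0.05 were 12.6% of these genes. DESeq2 called Cxcl12 (adjusted p 0.0250), with 2.90% of the genes, and so did edgeR without DMSO 1, with 5.00% of the genes. Within cluster 39 the levels were 150, 509, 273 and 174 CPM, and within cluster 41 they were 800, 1223, 637 and 806 CPM. The groups overlapped in both clusters, and cluster 41 held 104 of 287 cells in DMSO 2 and most cells of the other libraries.

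Endothelial Cxcl12 was highest in cluster 26 among the larger clusters, at 293, 330, 312 and 198 CPM, while cluster 3 had 5.23 to 7.24 CPM. Over all endothelium the groups overlapped, at 59.7 and 58.4 scaled CPM under BPTES and 60.5 and 38.1 under DMSO (log2 difference 0.28, SE 0.26, edgeR adjusted p 0.772). Without DMSO 1 this difference was 0.63 and was called, with 3.35% of endothelial genes. Proximal tubule gave 21.7% of the Cxcl12 UMIs of cells other than leukocytes, at 3.08 to 5.03 CPM. Endothelial Cxcr4, which binds CXCL12, was at 10.5 scaled CPM in each BPTES library and at 14.1 and 14.3 in the DMSO libraries (log2 difference -0.44, SE 0.15, edgeR adjusted p 0.285). Its groups did not overlap, as in 42.9% of endothelial genes.

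Among receptors, Tnfrsf17 (ENSMUSG00000022496, chr16:11313812-11320074, plus strand), the gene of BCMA, had 94.0% of its leukocyte UMIs in plasma cells. It stood at 71.9 to 127 CPM there and at 0 to 5.61 in B cells, where each library had 22 UMIs or fewer. Each cell was also thinned to 2000 UMIs, which left out the shallower cells (46, 26, 7 and 0 of the plasma cells in the order above). Then 12.1% (exact 95% interval 7.73 to 17.7) of plasma cells in BPTES 1 had a Tnfrsf17 UMI, 20.7% (14.5 to 28.0) in BPTES 2, 14.3% (3.05 to 36.3) in DMSO 1 and 11.5% (2.45 to 30.2) in DMSO 2. These intervals overlap and cover counting error only. Unthinned, the shares were 51.8%, 63.6%, 50.0% and 76.9%. In proximal tubule cells, which should lack the gene, the thinned share was 0.0187% to 0.0429%, and their median depth was 15037 to 17943 UMIs.

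Plasma cells were then compared between the groups. Tnfrsf17 had 83.5 (BPTES 1), 169 (BPTES 2), 84.4 (DMSO 1) and 66.3 (DMSO 2) scaled CPM. BPTES 2 was high and BPTES 1 lay within the DMSO range. The log2 difference was 0.75 (SE 0.38, edgeR adjusted p 0.797). None of the 7 members tested in plasma cells was called by edgeR, against 0.0450% of all 11114 genes. DESeq2 called 0, against 0.414% of the genes. An unadjusted edgeR p below 0.05 was found for 1 member, against 5.70% of the genes. Mzb1 (ENSMUSG00000024353, chr18:35647267-35649367, minus strand) was that member. It had 1167, 2029, 842 and 975 scaled CPM in the same order, and a log2 difference of 0.81 (SE 0.32, edgeR adjusted p 0.797). Its groups did not overlap, as in 39.4% of the genes tested.

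Xbp1 (ENSMUSG00000020484, chr11:5520659-5525893, plus strand) stood at 634, 1026, 736 and 679 scaled CPM in plasma cells. The log2 difference was 0.23 (SE 0.30, edgeR adjusted p 0.897). Tnfrsf13b (ENSMUSG00000010142, chr11:61126755-61149372, plus strand), the gene of TACI, had 121, 192, 136 and 107 (log2 difference 0.37, SE 0.31, edgeR adjusted p 0.840). Tnfrsf13c (ENSMUSG00000068105, chr15:82221743-82224369, minus strand), the gene of the BAFF receptor, had 25.5, 35.6, 29.7 and 41.8, at -0.25 (SE 0.30, edgeR adjusted p 0.887). Cxcr4 (ENSMUSG00000045382, chr1:128588199-128592293, minus strand), the CXCL12 receptor, had 45.5, 31.9, 45.1 and 40.3, at -0.13 (SE 0.28, edgeR adjusted p 0.947). In each of these 4 genes the groups overlapped. Tnfsf13b, a ligand and here sparse, had 8.94, 3.12, 11.5 and 11.5, both BPTES values being below DMSO (-0.90, SE 0.55, edgeR adjusted p 0.797).

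Beside the plasma cell values stand 2 further measurements. The TMM factor of BPTES 2 was 0.754, and those of the other 3 libraries were 1.09 to 1.11, so the scaling raised every BPTES 2 value relative to the rest. On library totals alone the median log2 difference of all genes was -0.23 rather than 0.01, with Mzb1 at 0.50, Tnfrsf17 at 0.41 and Xbp1 at -0.080. Other leukocytes' markers were also found in some of the cells. The 7 macrophage markers summed to 1031, 258, 695 and 2481 CPM and the 7 neutrophil markers to 378, 28.0, 25.4 and 49.8 CPM in the same order, each marker being above 0. In these 2 lists the groups overlapped. The 5 type 2 dendritic cell markers (91.0, 31.0, 401 and 390 CPM), the 5 classical monocyte markers (276, 319, 504 and 427) and the 7 T cell markers (93.2, 25.2, 146 and 181) were higher in both DMSO libraries, while the 10 B cell markers (894, 928, 587 and 663), the 6 plasmacytoid dendritic cell markers (194, 245, 131 and 189) and the 6 mature dendritic cell markers (23.8, 30.8, 11.7 and 16.1) were higher in both BPTES libraries. Of these lists, 5 of 10 B cell, 3 of 7 macrophage, 2 of 5 classical monocyte and 1 of 7 neutrophil markers were in at least 20% of plasma cells. So were 2 of 6 plasmacytoid and 2 of 6 type 1 dendritic cell markers. For T cells, type 2 and mature dendritic cells it was 0. Whether plasma cells make some of these RNAs themselves was not tested, nor was the part of such markers in the plasma cell differences. Cells were then left out if the markers of another leukocyte list made up over 0.1% of their UMIs, with at least 5 UMIs. The B cell list was not used for this, so B cell markers did not exclude a cell. This kept 173, 158, 23 and 14 plasma cells. Mzb1 was then at 0.18 (SE 0.41), Tnfrsf17 at 0.05 (SE 0.28), Xbp1 at -0.46 (SE 0.35) and Tnfrsf13b at -0.36 (SE 0.29), with edgeR adjusted p from 0.847 to 0.996 over the 7 members. Without BPTES 1, edgeR called Mzb1 (1.15, adjusted p 0.00209) and Tnfrsf17 (1.17, adjusted p 0.0155), with 5.78% of all genes in that fit.

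**Figure D3:**
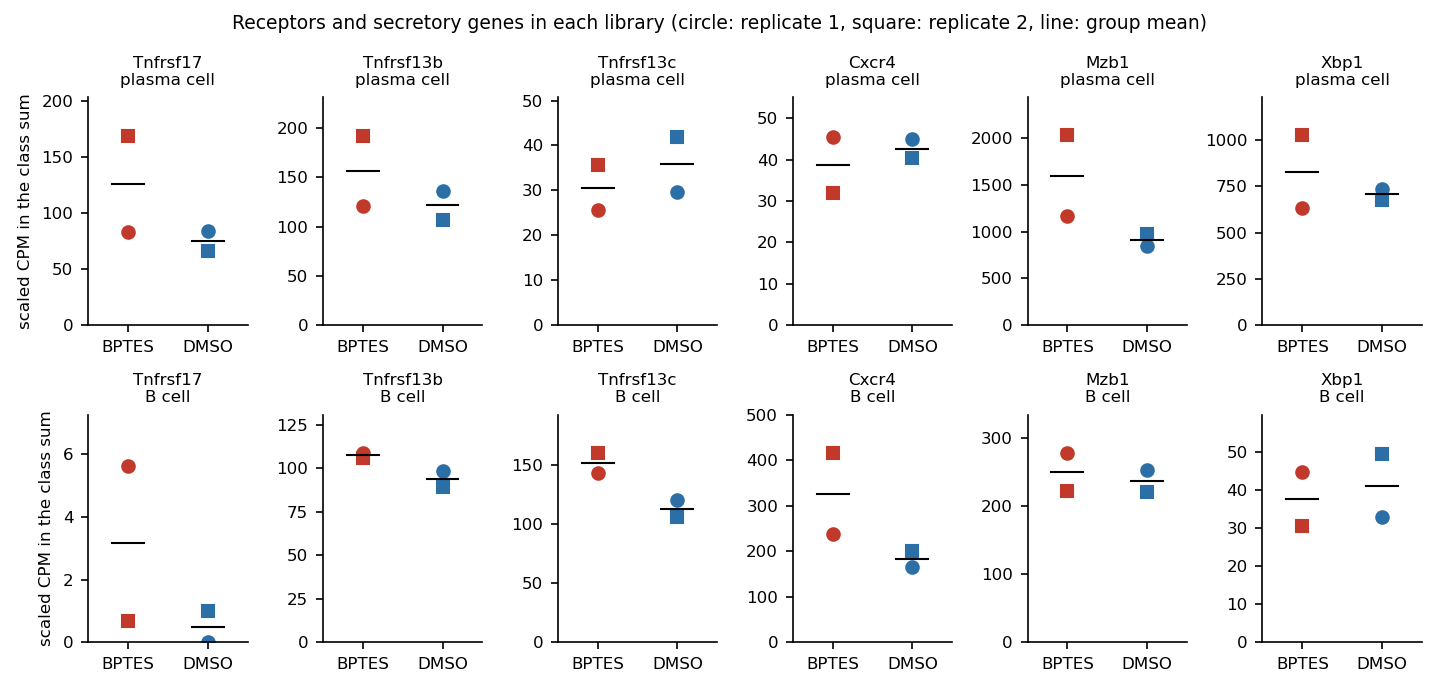
Scaled CPM of the receptor and secretory genes in plasma cells (top) and B cells (bottom); circles are replicate 1, squares replicate 2 and lines the group means. In plasma cells the BPTES 2 value of Mzb1 (2029) and Tnfrsf17 (169) is the highest of 4. In B cells both BPTES values of Cxcr4, Tnfrsf13c and Tnfrsf13b lie above both DMSO values, as in 24.2% of B cell genes.

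By level, Mzb1 stood at 930 to 1526 CPM in plasma cells, 216 to 277 in B cells and 19.2 to 139 in plasmacytoid dendritic cells, which do not overlap. The 19.2 is DMSO 2, with 2 plasmacytoid dendritic cells and 2 Mzb1 UMIs; the other libraries stood at 75.9 to 139. Xbp1 stood at 694 to 813 CPM in plasma cells. Plasmacytoid dendritic cells (183 to 246) and thin limb cells (131 to 279) came next for Xbp1 and overlapped each other. Tnfrsf13c stood at 104 to 156 CPM in B cells and 26.8 to 45.4 in plasma cells. Cxcr4 was highest in neutrophils (346 to 465 CPM) and nonclassical monocytes (315 to 441), whose ranges overlapped, and B cells (171 to 406) overlapped both. After thinning, Mzb1 was found in 68.1%, 72.7%, 66.7% and 69.2% of plasma cells in the order above, and in 0.129% to 0.456% of proximal tubule cells; unthinned, the plasma cell shares were 72.4%, 71.0%, 57.1% and 92.3%.

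In B cells none of 6 members tested was called by edgeR, where 0 of 10921 genes were called (0%) and 1762 had an unadjusted p below 0.05, 3 members among them. DESeq2 called 3.15% of the genes, and of the members Cxcr4 and Tnfsf13b; without DMSO 1, edgeR called Tnfsf13b and 9.94% of the genes. Cxcr4 had 238, 417, 167 and 202 scaled CPM in the same order, both BPTES above both DMSO, with a log2 difference of 0.82 (SE 0.29, edgeR adjusted p 0.269). Tnfrsf13c had 143, 160, 120 and 106, also without overlap, as in 50.4% of B cell genes (0.43, SE 0.14, edgeR adjusted p 0.214). Without B cell cluster 49 these differences were 0.60 (SE 0.30) and 0.04 (SE 0.13). Tnfrsf13b lay at 109, 106, 98.4 and 89.2, again without overlap. Its log2 difference was 0.20 (SE 0.13, edgeR adjusted p 0.502), and 0.03 without the cluster. Mzb1 (278, 222, 252 and 220.5) and Xbp1 (44.8, 30.6, 32.9 and 49.5) overlapped between the groups.

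Whether a change differed between plasma cells and B cells was tested as an interaction. None of 7 members was called by edgeR, against 2 of 11562 genes (0.0173%). DESeq2 called 0 members, with 0.225% of the genes. An unadjusted edgeR p below 0.05 was found for 1 member and for 706 of the genes. That member was Tnfsf13b, whose plasma cell difference minus its B cell difference was 1.35 (SE 0.45, edgeR adjusted p 0.789), and 0.46 with predicted doublets kept. For Cxcr4 the value was -0.97 (SE 0.47, edgeR adjusted p 0.820), and it was called without BPTES 1, with 0.971% of genes; with predicted doublets kept it was -0.24. By cell, 32.4%, 44.7%, 28.6% and 38.5% of thinned plasma cells had a UMI of at least 1 of the 3 TNF family receptors. B cells had 29.9%, 35.4%, 31.7% and 30.5%.

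RNA of Tnfrsf13b, the gene of TACI, was also read in myeloid classes. TACI binds both BAFF and APRIL. Tnfrsf13b was highest in plasmacytoid dendritic cells, at 168 to 269 CPM, followed by plasma cells (116 to 150), B cells (87.9 to 108) and type 2 dendritic cells (51.4 to 64.7), and these ranges do not overlap; the DMSO 2 value of plasmacytoid dendritic cells rests on 20 UMIs. In macrophages, monocytes, neutrophils and both tested dendritic cell classes, 33 pairs of gene and class were tested. None was called by edgeR (5 at an unadjusted p below 0.05) or by DESeq2. The share of all genes called by edgeR was 2.77% in macrophages, 0.00866% in classical and 0.899% in nonclassical monocytes, 0% in neutrophils and type 1 dendritic cells, and 0.226% in type 2 dendritic cells. Without DMSO 1, 5 pairs were called, 4 of them in neutrophils, where 17.7% of all genes then passed, and 1 in type 1 dendritic cells, where 1.76% did.

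Macrophage Tnfrsf13b was at 27.6, 26.3, 33.6 and 30.0 scaled CPM in the order BPTES 1, BPTES 2, DMSO 1 and DMSO 2 (log2 difference -0.24, SE 0.09, edgeR adjusted p 0.171). Neutrophil Tnfrsf13b was at 1.51, 4.02, 7.73 and 21.2, from 3, 8, 16 and 71 UMIs (-2.40, SE 0.70, edgeR adjusted p 0.758). With predicted doublets kept the difference was -0.54 (SE 0.20). Most DMSO 2 neutrophils belong to the cluster led by Cxcl3, Il1rn and Cxcl2 at resolution 2. In type 1 dendritic cells Tnfrsf13b was at 35.0, 35.7, 52.2 and 41.0 (-0.38, SE 0.15, edgeR adjusted p 0.343). In each of these 3 classes the DMSO libraries lay above the BPTES libraries; in type 1 dendritic cells the groups did not overlap in 44.8% of genes. Cxcr4 was higher in both BPTES libraries in type 1 dendritic cells, at 37.3 and 68.5 against 7.29 and 25.8 (1.57, SE 0.74, edgeR adjusted p 0.520).

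Summed over the named leukocyte classes, 3 receptor and secretory genes rose. Tnfrsf17 counted 1112 UMIs in BPTES 1, 1219 in BPTES 2, 112 in DMSO 1 and 224 in DMSO 2. Its level was 17.1, 22.3, 1.56 and 3.33 scaled CPM, a log2 difference of 3.02 (SE 0.43, edgeR adjusted p 0.0439). Xbp1 rose, with 193 and 209 under BPTES and 85.3 and 106 under DMSO (1.07, SE 0.12, edgeR adjusted p 0.0261). Tnfrsf13b rose, with 53.8 and 52.9 under BPTES and 42.2 and 40.7 under DMSO (0.36, SE 0.05, edgeR adjusted p 0.0263). Mzb1 was at 245, 277, 25.9 and 56.6 scaled CPM and was not called by edgeR (2.66, SE 0.48, adjusted p 0.0741). These 3 calls among 10 members compare with 7.96% of all 16894 genes, 3.39% higher under BPTES; DESeq2 called 7 members and 14.4% of genes. Each of the 3 was lost without BPTES 1 or without BPTES 2, with the direction kept (0.125% and 0.0625% of genes called), and Tnfrsf17 also with no filter on low counts (adjusted p 0.104). Such a sum mixes the number of cells of a type with the RNA of each; the numbers of plasma cells and the levels within them are given above.

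Plasma cells gave 94.2%, 97.8%, 78.6% and 79.9% of the leukocytes' Tnfrsf17 UMIs in the order above. For Mzb1 the shares were 92.1%, 94.8%, 47.3% and 69.1%, for Xbp1 63.5%, 63.6%, 12.5% and 25.6%, and for Tnfrsf13b 43.6%, 47.0%, 4.69% and 10.5%. In the same libraries plasma cells held 17.5%, 16.3%, 1.37% and 3.79% of leukocyte UMIs. With plasma cells left out of the sum, edgeR called none of the 10 members (2 at an unadjusted p below 0.05), against 7.73% of 16556 genes. At an unadjusted edgeR p below 0.05 were 30.1% of these genes. DESeq2 called Cxcr4 alone, with 13.1% of genes. Without DMSO 2, edgeR called 3 members, Cxcr4, Tnfrsf13b and Tnfrsf13c, with 14.6% of genes. Xbp1 was at 82.2, 87.7, 78.8 and 84.7 scaled CPM in this sum (log2 difference 0.05, SE 0.06). Tnfrsf13b lay lower under BPTES there, at 35.4, 32.3, 42.5 and 39.1 (-0.27, SE 0.08, edgeR adjusted p 0.0803). Its groups did not overlap, as in 61.3% of the genes. Tnfrsf17 was at 0.72 (SE 0.50) and Mzb1 at 0.25 (SE 0.21), with overlapping groups.

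**Figure D4:**
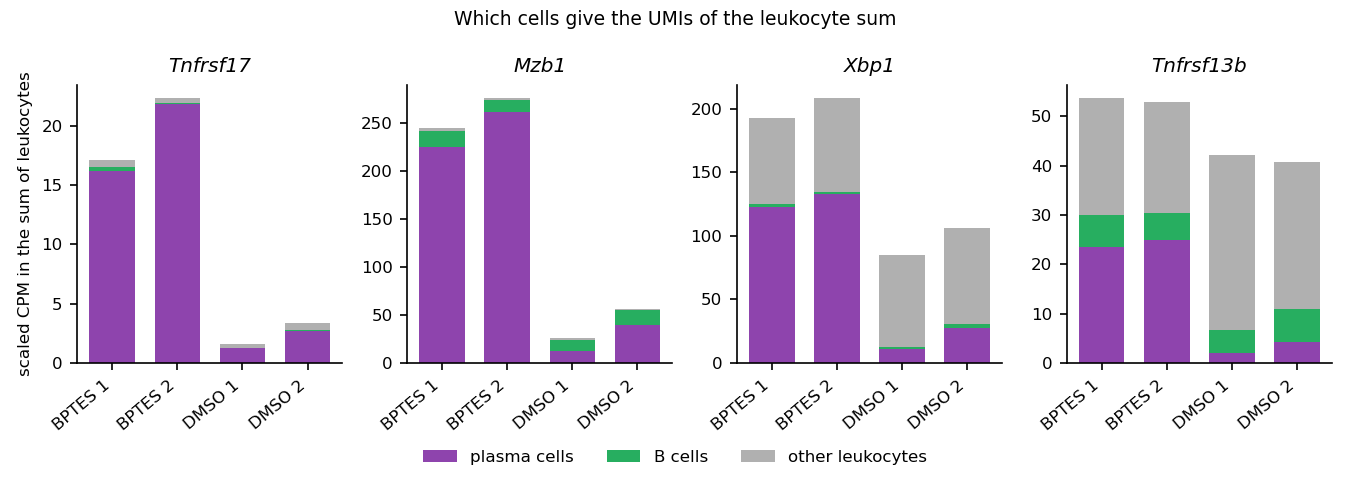
Scaled CPM of 4 genes in the sum of the named leukocyte classes of each library. Bars are split by the cells that gave the UMIs (purple plasma cells, green B cells, grey other leukocytes). The purple part makes up 94.2% and 97.8% of Tnfrsf17 in the BPTES libraries, and the grey part of Xbp1 is 67.6 to 75.3 scaled CPM in all 4.

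Tnfsf13b in the whole leukocyte sum was at 35.8, 27.7, 39.1 and 48.5 scaled CPM (-0.46, SE 0.17, edgeR adjusted p 0.173), and Cxcr4 was at 131, 157, 89.2 and 117 (0.48, SE 0.17, edgeR adjusted p 0.160). Neither overlapped between the groups, as in 62.5% of genes. Macrophages, which gave most of the leukocytes' Tnfsf13b UMIs, were 26.3% (BPTES 1), 25.1% (BPTES 2), 29.9% (DMSO 1) and 34.2% (DMSO 2) of leukocytes. The part of these shares in the sum was not tested. Outside leukocytes, low counts of Mzb1 were higher in the BPTES libraries: proximal tubule had 1.52, 1.70, 0.610 and 0.644 CPM, with 74.3, 42.8, 139 and 163 Mzb1 UMIs per 1000 UMIs of the plasma cell gene Jchain. In plasma cells themselves that ratio was 37.7, 27.1, 25.7 and 36.8. Endothelial Mzb1, at 7 to 14 UMIs a library, was not called (1.42, SE 0.57, edgeR adjusted p 0.359). The part of free RNA in these counts was not tested.

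The genes around the 10 were read in 6 lists. None of their genes was called by edgeR in plasma cells or B cells, while DESeq2 called Hspa5 and Socs3 in plasma cells and Bcl2a1b and Socs3 in B cells; Bcl2a1b was chosen after its values were seen. Of the 21 genes of ER stress sensors and chaperones, which detect and fold unfolded proteins, 21 had a positive plasma cell log2 difference (median 0.54, 9 at an unadjusted p below 0.05, against 5.70% of all genes). Their BPTES libraries lay above DMSO without overlap in 14 of 21, against 20.8% of all genes. Of the 22 genes of ER translocation, export and degradation, 22 were positive (median 0.48, 3 at an unadjusted p below 0.05, and 10 of 22 higher in both BPTES libraries without overlap). Over all plasma cell genes 51.0% were positive, with a median of 0.01.

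Hspa5, the gene of the main ER chaperone BiP, stood at 1213, 1925, 528 and 655 scaled CPM in plasma cells, in the order BPTES 1, BPTES 2, DMSO 1 and DMSO 2, without overlap (1.41, SE 0.31, edgeR adjusted p 0.797, DESeq2 adjusted p 0.00996). Hsp90b1, another ER chaperone, stood at 1889, 3352, 1256 and 1427 (0.97, SE 0.32). Sec11c, of the signal peptidase, was at 687, 1241, 577 and 601 (0.71, SE 0.32), also without overlap. Ssr4, of the translocon, was at 716, 1492, 782 and 676 (0.60, SE 0.37), where the groups overlapped.

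On library totals alone, with the median of all genes at -0.23, 21 of 21 and 22 of 22 ER genes lay above that median. The list medians lay 0.45 and 0.40 above it. A change of scaling moves all genes by about the same amount. Their place relative to the median of all genes is thus no test of the ER pattern. The ER counts changed with the cells and the libraries. Without BPTES 2, 20 of 21 and 16 of 22 were positive (medians 0.20 and 0.08), while without BPTES 1 edgeR called 10 and 7 of them, with 5.78% of all genes. Without the plasma cells that carried other leukocytes' markers, 11 of 21 and 12 of 22 were positive (medians 0.0047 and 0.014), with Hspa5 at 0.92, Hsp90b1 at 0.31, Sec11c at 0.0070 and Ssr4 at 0.11. In B cells 6 of 20 and 4 of 22 were positive (medians -0.09 and -0.22), where 48.7% of all genes were, at a median of -0.01, with Hspa5 at -0.09 (SE 0.18), and without cluster 49 they were 10 of 20 and 5 of 22.

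**Figure D5:**
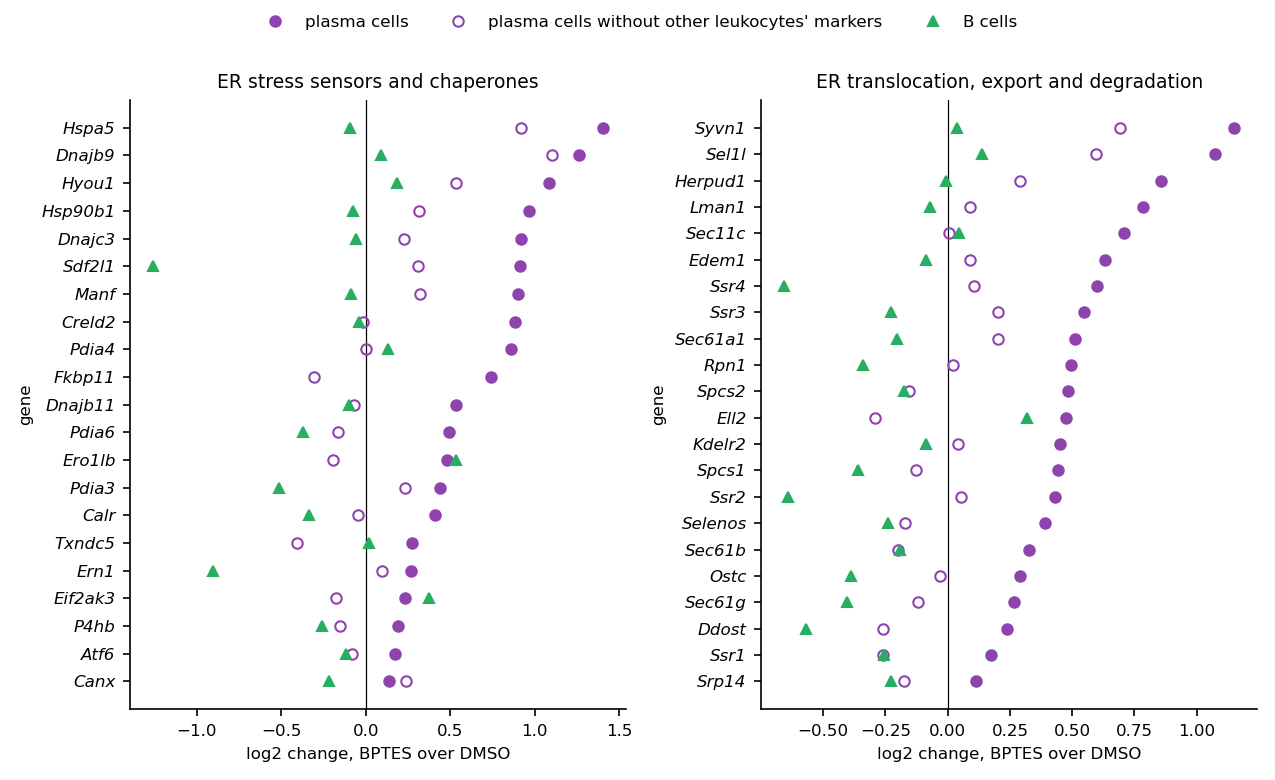
Log2 difference of BPTES from DMSO for each gene of the 2 ER lists, in plasma cells (filled circles), in plasma cells without those that carried other leukocytes' markers (open circles) and in B cells (triangles). All filled circles lie right of 0, while 11 of 21 and 12 of 22 open circles do; none of these genes was called by edgeR.

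Elements in the promoters of the ER genes are shown because XBP1 and the related factor ATF6 are known to act through them. The ER stress response element was searched as CCAAT, 9 bases of any kind, then CCACG, on both strands of the 250 bases before each start (RefSeq, GRCm38.p6). It was found in 7 of the 17 chaperone list genes with an entry (41.2%), in 1 of 16 of the export list, in 0 of 9 members and in 35 of 27025 genes (0.13%). The matches that follow, 5′ to 3′ on the strand of the motif, have its fixed letters in capitals.
Hspa5 (chr2:34772025-34772043, plus strand): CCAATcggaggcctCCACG
Hsp90b1 (chr10:86705638-86705656, minus strand): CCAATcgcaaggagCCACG
Pdia6 (chr12:17266491-17266509, plus strand): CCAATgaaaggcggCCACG
Dnajc3 (chr14:118937827-118937845, plus strand): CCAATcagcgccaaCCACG
Syvn1 (chr19:6046532-6046550, plus strand): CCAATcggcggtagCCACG
The match of Hspa5 lies 47 to 65 bases before its start, and that of Syvn1, a ubiquitin ligase of ER degradation, 26 to 44. Pdia6, Dnajc3 and Syvn1 were chosen after their values were seen, with plasma cell log2 differences of 0.49, 0.92 and 1.15. The element was also found in Canx, Calr and Creld2, whose differences were 0.14, 0.41 and 0.89. Without the plasma cells with other leukocytes' markers, Pdia6, Dnajc3 and Syvn1 were at -0.16, 0.23 and 0.69. Canx, Calr and Creld2 were then at 0.24, -0.047 and -0.015.

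Of 12 genes of the IL-6 and CXCL12 axis, 1 had a positive plasma cell difference (median -0.42, 2 at an unadjusted p below 0.05). Gnai2, a G protein subunit used by chemokine receptors, had 225, 177, 219 and 310 scaled CPM, which overlap (-0.40, SE 0.29, edgeR adjusted p 0.813). Rgs1, which dampens that signal, had 112, 42.4, 165 and 181, without overlap (-1.17, SE 0.47, edgeR adjusted p 0.797). Without the cells with other leukocytes' markers 7 of 12 were positive, with Rgs1 at 0.57 and Gnai2 at 0.097. Socs3, a feedback inhibitor of IL-6 signalling chosen after its values were seen, had 14.9, 8.22, 44.1 and 74.8 in plasma cells (-2.37, SE 0.40, edgeR adjusted p 0.571, DESeq2 adjusted p 0.000447). In B cells Socs3 had 21.3, 16.0, 38.8 and 57.7 (-1.37, SE 0.25, edgeR adjusted p 0.103). In both classes its BPTES values lay below its DMSO values. The plasma cell value was -1.51 without the cells with other leukocytes' markers and -1.58 with predicted doublets kept. The B cell value was -0.78 without cluster 49 and -0.59 with predicted doublets kept.

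Of the BCL2 family, 2 of 9 were positive in plasma cells (median -0.21). Mcl1, on which plasma cells are known to depend, had 213, 216, 294 and 202 scaled CPM (-0.21, SE 0.28), and Bcl2 had 97.0, 110, 144 and 80.7 (-0.11, SE 0.33), both with overlapping groups. Without the cells with other leukocytes' markers Bcl2 was at -0.80. Of TNF receptor and NF-kB signalling, 6 of 15 were positive (median -0.05). The inhibitor gene Nfkbia had 272, 293, 252 and 370 (-0.14, SE 0.28). Birc3, a ubiquitin ligase of the receptor complex, had 103, 99.1, 146 and 158, without overlap (-0.59, SE 0.24, edgeR adjusted p 0.797). Among 13 tested identity genes 8 were positive. Slamf7, a surface receptor of plasma cells, was at 0.29 (SE 0.28), and Pou2af1, a B lineage coactivator, was at 0.28 (SE 0.28). In B cells, 12 of 15 NF-kB genes and 1 of 9 BCL2 genes were positive, and without cluster 49 they were 8 of 15 and 5 of 9.

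Genes whose level across the 22 class means was most like a member's are given as a description, with Pearson r of log2(CPM + 1). The class means share libraries and depth. Tnfsf13b was followed by Itga8 (0.927), Slco2b1 (0.890) and Tgfbi (0.883), and Cxcl12 by A830082K12Rik (0.942), Fibin (0.936) and Arhgap20 (0.930). Tnfsf13, at its low counts, was followed by Rspo1 (0.917), 4933417E11Rik (0.915) and Vsig4 (0.904), and Il6 by Mmp2 (0.766), Gfpt2 (0.764) and Gm20661 (0.758). Mzb1 was followed by Gm30211 (0.980), Iglc2 (0.971) and Iglc3 (0.964), and Tnfrsf17 by the immunoglobulin genes Igkv10-96 (0.979), Ighv1-54 (0.976) and Igkv3-4 (0.974). Tnfrsf13b was followed by Rubcnl (0.915), Cybb (0.910) and Milr1 (0.904), and Tnfrsf13c by Ighd (0.885), Bfsp2 (0.864) and Mcoln2 (0.857). Cxcr4 was followed by Grk2 (0.940), Prkcb (0.933) and Gmip (0.928). The closest genes to Xbp1 were Edem2 (0.796), Pycr1 (0.749) and Bhlha15 (0.716).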

How the data were processed

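The deposited files hold raw UMI counts per gene and barcode for each of 4 libraries. They were made with Cell Ranger 8.0.1 on mm10, per the submitters' processing notes. The annotation release is not given in the sources used here; gene positions are from the reference's GENCODE M21 annotation of that build. Barcodes with at least 500 UMIs and 300 genes and at most 50% mitochondrial UMIs were kept; 25273 exceeded the mitochondrial limit. Scrublet scored doublets library by library, and the highest scores, 0.4% per 1000 cells or 3867 in all, were removed. Cells were clustered (scanpy 1.11.5, leidenalg 0.10.2, 3000 variable genes, 40 components, resolution 1) without the 10 genes, and 46 of 53 clusters were named from marker lists; 4898 cells stayed unnamed.

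UMIs were added up for each class in each library. Classes that had 20 cells or more in all 4 libraries were fitted with edgeR 4.0.16 (R 4.3.3; quasi-likelihood test, TMM factors, filterByExpr, Benjamini-Hochberg adjustment over all genes tested, threshold 0.05); DESeq2 1.42.0 was an alternative. For plasma cells without those carrying other leukocytes' markers, an addition with 14 DMSO 2 cells, the minimum was lowered to 10 cells. The code was tested on simulated data. Other alternatives were RLE scaling, no low-count filter, a 25% mitochondrial limit, doublets kept, other clusterings, immunoglobulin genes left out, the replicate number as a block and each library left out. Plasma cell sums held 943706 (DMSO 1) to 11449911 (BPTES 1) UMIs.

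The members and gene lists were chosen with earlier results of these data known. Named are all 10 members, the 2 genes of each list with the most plasma cell UMIs (as edgeR called none), and the 3 genes most like each member; others are said to be chosen after their values were seen.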

Additional observations from a re-analysis of the deposited data

How the results depend on the processing

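Of the counts of called genes, 95 recomputed values were within 1.5 times the reported one and 37 were not; of single gene changes, 654 kept direction and side of the threshold, 51 passed it newly, 11 lost it and 31 changed sign. The cause of each change was not tested. Over the fits that left out 1 library, the number of members called ranged from 0 to 2 in plasma cells (2 without BPTES 1), 0 to 1 in B cells (1 without DMSO 1), 0 to 2 in endothelium (0 without either BPTES library, 2 without DMSO 1), 0 to 5 in myeloid classes (5 without DMSO 1; without BPTES 1 neutrophil Il6, with 0.218% of all genes; without DMSO 2 nonclassical monocyte Cxcr4, with 11.5%), 0 to 5 in the leukocyte sum (0 without either BPTES library, 5 without DMSO 2), 0 to 3 in that sum without plasma cells (3 without DMSO 2), 0 to 1 in mesenchymal stroma (1 without DMSO 1) and 0 to 1 for the interaction (1 without BPTES 1). Pathway genes called ranged from 0 to 26 in plasma cells (26 without BPTES 1, 3 without BPTES 2) and 0 to 20 in B cells (20 without DMSO 1). The share of all genes called without BPTES 1 was 5.78% in plasma cells and 0.971% for the interaction. Without DMSO 1 it was 9.94% in B cells, 5.00% in mesenchymal stroma, 3.35% in endothelium and 17.7% in neutrophils, and without DMSO 2 it was 9.75% in the leukocyte sum and 14.6% in that sum without plasma cells. The lone library of a group is then assumed to vary like the others.

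DESeq2 called 2 members in B cells, 1 in mesenchymal stroma, 7 in the leukocyte sum, 1 in that sum without plasma cells, and 2 pathway genes each in plasma and B cells. With no filter on low counts, 2 members were called in B cells (5.74% of all genes), 1 in myeloid classes (neutrophil Tnfrsf13b, 0.986%), 1 in mesenchymal stroma (4.33%) and 1 in the leukocyte sum without plasma cells (8.78%), with 9 pathway genes in plasma cells (1.42%) and 17 in B cells. With doublets kept, 0 members were called in endothelium (0.117%) and 5 in the leukocyte sum (7.75%), and 3 pathway genes in plasma cells (0.220%). Libraries share only a replicate number: deviations of same-numbered libraries correlated at -0.16 to 0.04 over 5 classes. With that number as a block, 1 member was called in B cells (2.75%), 0 in endothelium (0.564%; Il6 at -1.61, edgeR adjusted p 0.0809), 2 in myeloid classes (Cxcr4 in type 1, 0.413%, and type 2 dendritic cells, 6.28%) and 1 in the leukocyte sum without plasma cells (4.48%), with 3 pathway genes in B cells.

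Changes of sign were all of values that edgeR had not called. In plasma cells without those carrying other leukocytes' markers (an alternative chosen after seeing the data), Xbp1 was at -0.46, Tnfrsf13b -0.36, Tnfsf13b 0.54, Gnai2 0.097, Rgs1 0.57, Slamf7 -0.12 and Pou2af1 -0.51. On library totals (also chosen later), which put the median of all genes at -0.23, Xbp1 was at -0.080, Slamf7 at -0.0042 and Pou2af1 at -0.014. With doublets kept, plasma cell Cxcr4 was at 0.48, and B cell Mzb1 at -0.00092 and Xbp1 at 0.25. Without cluster 49 (chosen later), B cell Mzb1 was at -0.20, Xbp1 at 0.13 and Hspa5 at 0.050. Leaving out single libraries gave ranges that crossed 0 in plasma cells for Xbp1 (-0.15 to 0.53), Tnfrsf13c (-0.50 to 0.046), Cxcr4 (-0.42 to 0.10), Nfkbia (-0.38 to 0.17), Mcl1 (-0.45 to 0.099), Bcl2 (-0.47 to 0.37) and Ssr4 (-0.020 to 1.03). In B cells they did so for Mzb1 (-0.074 to 0.24), Xbp1 (-0.42 to 0.22) and Hspa5 (-0.31 to 0.18), and also for endothelial Cxcl12 (-0.032 to 0.63) and Mzb1 in the leukocyte sum without plasma cells (-0.00027 to 0.45). Clustering at resolution 2 left 11 plasma cells in DMSO 1 and was not tested there; the minimum of 10 cells was used only for the plasma cells without other markers.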
